A study of Homo sapiens with 4 samples.

Results

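The matrix proteases and their inhibitors were followed in 2 cell lines of atypical teratoid/rhabdoid tumor (AT/RT) of the AT/RT-MYC subtype, before and after chemotherapy. The genes were all rows of the deposited count table named as a matrix metalloproteinase (MMP), an ADAMTS protease, or a tissue inhibitor of metalloproteinases (TIMP). They numbered 45 of the 18449 genes in the table, with 23 MMP, 19 ADAMTS, and 3 TIMP genes. Of these, 26 had more than 100 counts in at least 1 library, and 19 did not. TIMP1 was not analysed here, since the methods state that genes on the sex chromosomes were removed. The cell lines were BT-16 and CHLA-266, both established from AT/RT. Untreated cells were compared with cells that had received 3 agents in turn and had then regrown for several weeks. The agents were the topoisomerase II poisons doxorubicin (1 µM) and etoposide (5 µM) and the microtubule blocker vincristine (1 µM). There was 1 library for each cell line and condition, which left 2 libraries per condition. Where values are given in pairs, BT-16 comes first and CHLA-266 second. The main p values, from a fit without a term for the cell line, therefore measure the spread between 2 different cell lines. Where cell line was added as a block, the steady difference between the lines was taken out. Those p values rest on how the responses of the 2 lines differ and on spread shared across genes. An exact permutation test of 2 against 2 libraries could not go below 0.333 (two-sided).

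Total counts were between 49849258 and 75087194 per library, and both treated libraries were smaller than both untreated libraries. More genes were detected after treatment in both cell lines, rising from 16079 to 17815 in BT-16 cells and from 15464 to 17114 in CHLA-266 cells. MYC had 14275 and 11515 counts in the untreated and 6804 and 7505 in the treated libraries of BT-16 and CHLA-266. SMARCB1, whose loss defines most AT/RT, was counted in all 4 libraries (1394 and 1313 untreated, 981 and 827 treated), and counts per gene do not show whether the transcript was intact. These are bulk libraries, in which a higher share of cells with a transcript and more of it per cell cannot be told apart.

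MMPs and ADAMTS proteases are zinc-dependent enzymes that cut the extracellular matrix and proteins bound to it. Most MMPs are secreted as inactive precursors, whereas the membrane-type MMPs are anchored at the cell surface and can activate others. ADAMTS proteases carry thrombospondin repeats that bind them to the matrix, and several of them cut the chondroitin sulfate proteoglycans that fill the extracellular space of the brain. TIMPs bind the active site of these enzymes, and TIMP3 is the one that also blocks several ADAMTS proteases.

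Promoters were available from RefSeq (GRCh38.p14) for 26 of the 45 genes. They were searched on both strands from 250 bases before to the transcription start for 4 motifs. TGANTCA stood for an AP-1 site, where the transcription factor complex of FOS and JUN proteins can bind. TATAAA stood for the TATA box that positions the start of transcription in some genes. AGGAAG stood for the PEA3 motif, a known binding motif of ETS factors that recurs in MMP promoters. GGGCGG stood for the GC box bound by SP1 and its relatives. Overlapping matches, as in runs of adjoining GC boxes, were each counted. The 4 promoters below are examples of ADAMTS genes that rose after treatment and of MMP genes of the chromosome 11 cluster. The 2 MMP genes had low counts and did not pass the test. In each, both treated libraries lay above both untreated ones, which held for 40.2% of all genes. The 4 promoters were chosen after their motifs were seen. Each is the 200 bases before the start, written 5′ to 3′ on the minus strand on which all 4 genes lie, with AP-1 sites, TATA boxes, and GC boxes of either strand in capitals.
ADAMTS7 (chr15:78811465-78811664): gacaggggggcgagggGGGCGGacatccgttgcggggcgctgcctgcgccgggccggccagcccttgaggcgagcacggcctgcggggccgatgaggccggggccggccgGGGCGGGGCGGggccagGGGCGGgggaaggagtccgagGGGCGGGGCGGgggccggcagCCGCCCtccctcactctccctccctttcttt
ADAMTS12 (chr5:33891991-33892190): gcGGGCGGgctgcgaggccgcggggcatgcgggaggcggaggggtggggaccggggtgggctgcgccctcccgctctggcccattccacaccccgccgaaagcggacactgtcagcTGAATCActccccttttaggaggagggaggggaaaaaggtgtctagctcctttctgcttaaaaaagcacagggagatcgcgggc
MMP7 (chr11:102530748-102530947): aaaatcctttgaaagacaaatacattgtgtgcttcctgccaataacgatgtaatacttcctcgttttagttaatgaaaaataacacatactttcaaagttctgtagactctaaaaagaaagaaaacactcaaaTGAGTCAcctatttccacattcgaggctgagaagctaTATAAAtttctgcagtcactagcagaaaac
MMP10 (chr11:102780629-102780828): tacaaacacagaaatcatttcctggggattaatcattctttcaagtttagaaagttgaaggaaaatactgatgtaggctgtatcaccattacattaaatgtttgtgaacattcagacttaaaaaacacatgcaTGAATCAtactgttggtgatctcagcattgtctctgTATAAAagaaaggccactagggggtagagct
ADAMTS7 held 7 GC boxes and none of the other motifs. ADAMTS12 held 1 GC box, an AP-1 site 84 bases before the start, and a PEA3 motif outside the printed stretch. MMP7 and MMP10 each held an AP-1 site at position -67 from the start and a TATA box at -30 and -31, without a GC box. MMP7 also held 2 PEA3 motifs, which are not in capitals, and MMP10 held none. Of the 5 cluster genes with a promoter in the table, 3 held an AP-1 site, 4 a TATA box, 1 a PEA3 motif, and 0 a GC box. Across the promoters of 14383 tested genes, 57.5% held a GC box, 28.6% a PEA3 motif, 8.97% a TATA box, and 4.89% an AP-1 site. Among the 9 genes of these families that rose after treatment and had a promoter, all 9 held a GC box, 2 a PEA3 motif, 1 a TATA box, and 1 an AP-1 site. Among the 17 that did not pass the test, 9 held a GC box, 3 a PEA3 motif, 6 a TATA box, and 3 an AP-1 site. A match is a run of letters and does not show that a factor binds there.

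After treatment, 20 of the 45 genes rose and 0 fell (edgeR quasi-likelihood test, adjusted p under 0.05 over 18066 genes). Over all genes tested, 16.1% rose and 19.1% fell (2910 and 3454 genes). That balance turned with the scaling, to 3678 and 2353 genes with library totals and 4361 and 1895 with upper-quartile normalization, while 22 of the 45 genes rose and 0 fell under either. The count of 0 fallen genes was also found with DESeq2, and 0 of the 45 genes were lower at an unadjusted p under 0.05. By family, 13 of 19 ADAMTS genes, 7 of 23 MMP genes, and 0 of 3 TIMP genes rose. For the 45 genes, the log2 fold change had a median of 2.90, against 0.24 over all genes. It was 2.50 with genes at 3 or fewer counts in both untreated libraries set to their bound. Of the 45 genes, 29 had a mean count under 100, beside 6778 of all 18066 genes. A median for genes at like counts was not computed. When only genes that reached 10 counts in each of the 4 libraries were fitted, 17 of the 45 had a median of 1.49. Over all 12620 genes of that fit it was 0.0052. The part of low counts in the medians given here was not tested. In 37 of the 45 genes both treated libraries lay above both untreated libraries, which held for 40.2% of all genes, and in 0 both lay below, which held for 32.3%. When cell line was added as a block, 20 genes rose and 0 fell, beside 17.9% and 23.7% of all genes, and 17 genes rose in both fits. Calls of these genes were lost when single libraries were left out, as given below. Without the treated BT-16 library, their median log2 fold change was 2.43, against 0.10 over all genes. Without the untreated CHLA-266 library it was 3.24, against 0.22.

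The share that rose was also compared at like counts, since many of these genes had few reads. Among the 29 genes with a mean count under 100, 13 rose, while 22.4% of all such genes rose and 0.133% fell. Among the 16 genes with a mean count of 100 or more, 7 rose and 0 fell, while 12.3% of all such genes rose and 30.5% fell. As a reference for transcripts that these cells are not known to use, 380 olfactory receptor genes were counted in the same way. Their summed level in BT-16 and CHLA-266 was 7.10 and 8.37 before and 94.0 and 68.8 after treatment, in counts scaled to library size by TMM (CPM). The 95th percentile of their counts per kilobase of exon was 4.11 and 3.81 before and 26.3 and 21.2 after treatment. In both treated libraries, 15 of the 45 genes lay above that percentile, including 7 of the 20 that rose (ADAMTS1, ADAMTS4, ADAMTS7, ADAMTS10, ADAMTS15, MMP17, and MMP24). ADAMTS1 lay only just above it in treated CHLA-266 cells, at 21.8 counts per kilobase. The part of this rise of olfactory receptor transcripts in the results was not tested for any of the 20, also not for these 7.

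**Figure D1:**
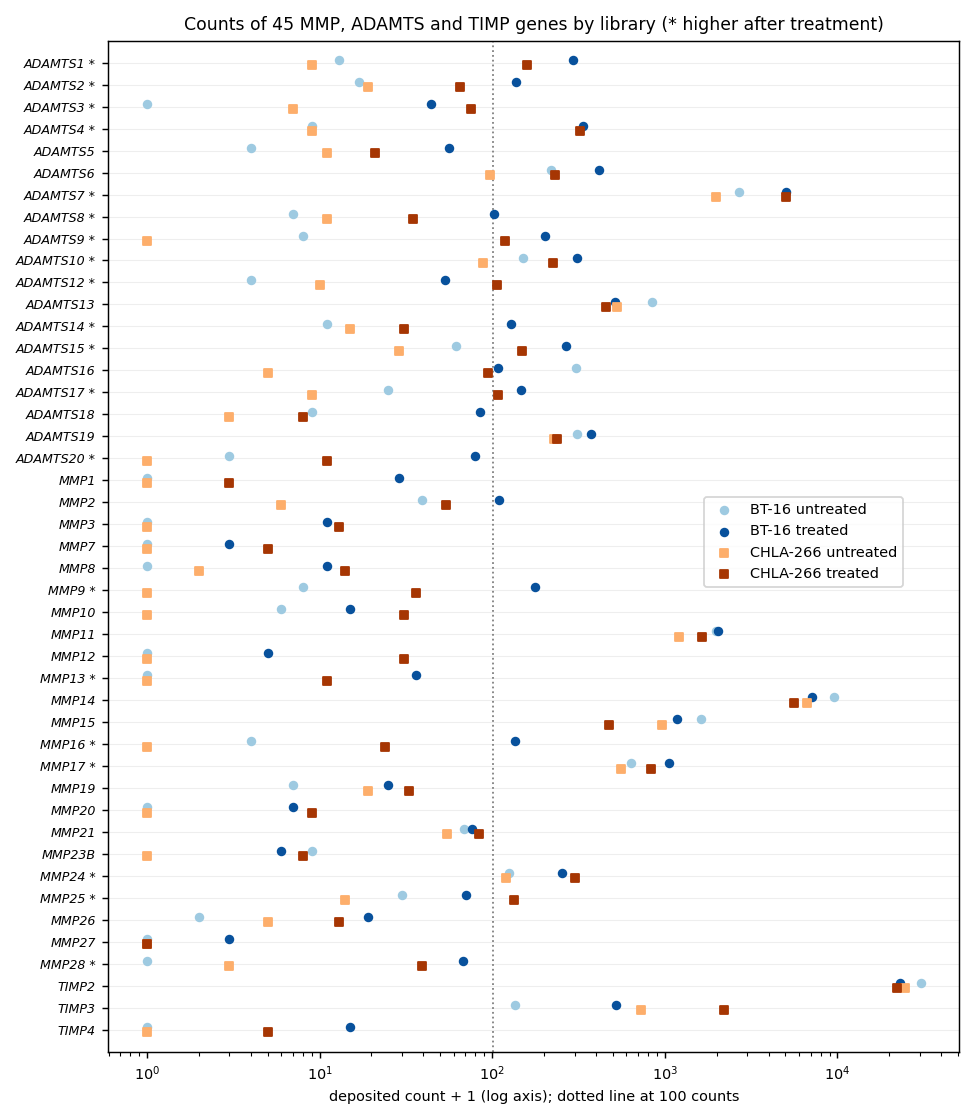
Deposited counts (plus 1, log axis) of the 45 genes in the 4 libraries, with circles for BT-16 and squares for CHLA-266, light before and dark after treatment, and asterisks on the 20 genes that rose. MMP14 and TIMP2 lie far to the right in every library, whereas most genes that rose started below 100 counts, the dotted line.

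Per length, the level was dominated by a few genes. TIMP2, which inhibits MMPs and helps MMP14 to activate pro-MMP2, was the highest of the 45 genes in all 4 libraries, at 70.9 and 64.3 CPM per kilobase of exon before and 64.0 and 69.0 after treatment in BT-16 and CHLA-266. It made up 56.4% and 59.5% of the summed level of the 45 genes before and 47.6% and 50.1% after treatment. MMP14, the main membrane-type collagenase, was second in all 4 libraries. It made up 67.5% and 68.9% of the summed MMP level before and 55.8% and 58.3% after treatment. ADAMTS7, a protease known for cutting cartilage oligomeric matrix protein, made up 51.3% and 58.6% of the ADAMTS level before and 54.7% and 64.8% after treatment. The summed ADAMTS level was 9.86 and 7.06 CPM per kilobase before and 20.5 and 19.3 after treatment, so the treated libraries did not overlap the untreated ones. The summed MMP level was 44.6 and 34.2 before and 47.8 and 40.2 after treatment, and the conditions overlapped. Without MMP14, that sum was 14.5 and 10.6 before and 21.2 and 16.8 after treatment, and the conditions did not overlap. The summed TIMP level, without TIMP1, was 1.31 and 1.62 times that of all proteases together before and 0.968 and 1.32 times after treatment. The conditions overlapped in this ratio too.

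**Figure D2:**
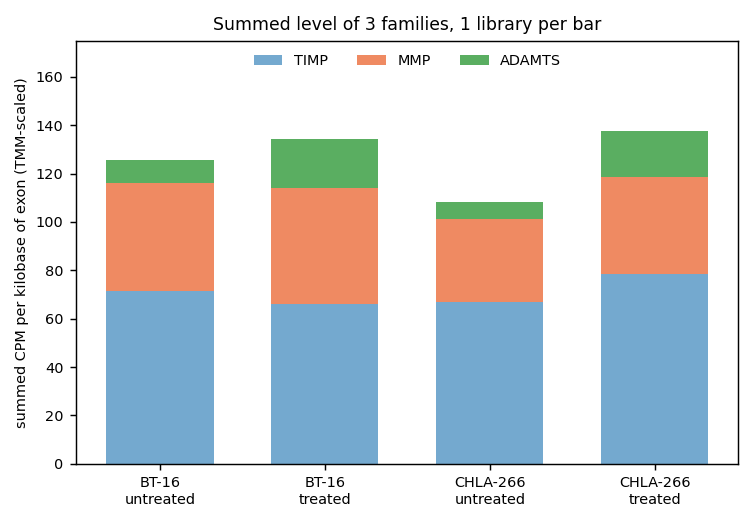
Summed level of the TIMP, MMP, and ADAMTS genes in CPM per kilobase of exon (TMM-scaled), stacked, with 1 library per bar and therefore no error bar. The ADAMTS segment is 9.86 and 7.06 in the untreated and 20.5 and 19.3 in the treated bars. The TIMP segment, without TIMP1, lies between 66.1 and 78.3 in all 4.

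Among the ADAMTS proteases, 6 of the 7 that cut proteoglycans rose, and 5 with the block. Over all genes 16.1% rose, and 17.9% with the block. This class and those below were chosen with earlier results of these data known. In this class of 7, the log2 fold change had a median of 4.72. ADAMTS4 (chromosome 1, 161184302 to 161199054, hg38), also called aggrecanase-1, had 8 counts in each cell line before and 336 in BT-16 and 322 in CHLA-266 after treatment. Both cell lines thus went from nearly no reads to counts well over the limit of 100, and the log2 fold change was 5.59 (SE 0.53, adjusted p = 0.000159 in edgeR). ADAMTS1 (chromosome 21, 26835755 to 26845409), which cuts versican and aggrecan, had 12 and 8 counts before and 293 and 159 after treatment. The log2 fold change was 4.72 (SE 0.63, adjusted p = 0.000911 in edgeR). Its neighbour ADAMTS5, or aggrecanase-2, which lies 72.5 kb away, had 3 and 10 counts before and 55 and 20 after treatment and did not pass the test (adjusted p = 0.130 in edgeR). The conditions did not overlap for any of these 3 genes. Within CHLA-266, the log2 ratio of ADAMTS5 was 1.21, against 4.24 in BT-16.

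ADAMTS9 (chromosome 3, 64515654 to 64688000), a versican-cutting protease, had 7 and 0 counts before and 201 and 117 after treatment. Its log2 fold change was 5.72 (SE 1.11, adjusted p = 0.00552 in edgeR), and it was 10.36 without the untreated BT-16 and 4.79 without the untreated CHLA-266 library. Here and below, a value left with an untreated count of 0 depends on the prior count of the fit. ADAMTS15 (chromosome 11, 130448645 to 130476645), which also cuts versican, had 61 and 28 counts before and 268 and 148 after treatment, which gave a log2 fold change of 2.48 (SE 0.58, adjusted p = 0.0126 in edgeR). Both treated libraries lay well above both untreated ones in these 2 genes. Its neighbour ADAMTS8, 20.0 kb away, had 6 and 10 counts before and 102 and 34 after treatment. The adjusted p of ADAMTS8 was 0.0339 in edgeR and 0.0575 when cell line was a block, and its call was lost without the treated BT-16 library (log2 fold change 2.37), the untreated BT-16 library (2.88), or the untreated CHLA-266 library (3.77). ADAMTS20, known for its part in the migration of pigment cell precursors, had 2 and 0 counts before and 79 and 10 after treatment. The ratio of its summed counts was 52.9 (counting interval 14.2 to 444, adjusted p = 0.0371 in edgeR), and its call was lost without the treated BT-16 (log2 fold change 3.53) or the untreated CHLA-266 library (4.65). It was 6.35 without the treated CHLA-266 and 8.48 without the untreated BT-16 library, where the call stayed.

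All 3 procollagen N-proteinases, which trim the amino end of fibrillar procollagens, rose in the fit without the block, beside 16.1% of all genes. With the block 2 rose, beside 17.9% of all genes. ADAMTS2, the main enzyme of this kind in skin, had 16 and 18 counts before and 136 and 64 after treatment (log2 fold change 2.77, SE 0.76, adjusted p = 0.0223 in edgeR). ADAMTS3 had 0 and 6 counts before and 43 and 74 after treatment, with a log2 fold change of 4.45 (SE 1.42, adjusted p = 0.0400 in edgeR). ADAMTS14 had 10 and 14 counts before and 128 and 30 after treatment, with a log2 fold change of 2.90 (SE 0.96, adjusted p = 0.0446 in edgeR and 0.0779 with the block). The conditions did not overlap in any of them. ADAMTS14 had a log2 ratio of 3.87 in BT-16 but 1.32 in CHLA-266. None of the 3 calls held under every left-out library. ADAMTS2 lost its call without the treated (log2 fold change 2.22) or untreated BT-16 library (2.61). ADAMTS3 lost it without the treated CHLA-266 (3.90) or the untreated BT-16 library (3.44), and its log2 fold change was 9.01 without the untreated CHLA-266 library. ADAMTS14 lost it without the treated BT-16 (1.62), the untreated BT-16 (2.61), or the untreated CHLA-266 library (3.25), and was at 3.57 without the treated CHLA-266 library.

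Among the other 9 ADAMTS genes, 4 rose, beside 16.1% of all genes and 22.4% of those with a mean count under 100. ADAMTS7 (chromosome 15, 78759206 to 78811464), whose GC-rich promoter is printed above, was the most abundant ADAMTS gene, with 2708 and 1977 counts before and 5030 and 5058 after treatment. Its log2 fold change was 1.37 (SE 0.17, adjusted p = 0.000709 in edgeR), or 2.58-fold, at a depth where counting error was small. ADAMTS7 has near-identical pseudogene copies, so how its reads were assigned is uncertain. ADAMTS10, which binds fibrillin microfibrils, had 150 and 87 counts before and 311 and 224 after treatment (log2 fold change 1.43, SE 0.45, adjusted p = 0.0363 in edgeR). Its call was lost without the treated BT-16 (log2 fold change 1.27) or the untreated CHLA-266 library (1.16). ADAMTS6, which is closely related to ADAMTS10, had 217 and 96 counts before and 413 and 229 after treatment. It passed the test with the block (adjusted p = 0.00877 in edgeR) and not without it (adjusted p = 0.0647), and its conditions did not overlap. Without a block it also passed in DESeq2, with library totals, with upper-quartile normalization, with at least 10 counts in every library, and when the treated CHLA-266 (log2 fold change 1.62) or the untreated BT-16 library (1.89) was left out.

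ADAMTS12, which like ADAMTS7 cuts cartilage oligomeric matrix protein, had 3 and 9 counts before and 52 and 106 after treatment, so that here CHLA-266 had the higher treated count. Its log2 fold change was 3.94 (SE 1.01, adjusted p = 0.0174 in edgeR). The call of ADAMTS12 was lost without the treated CHLA-266 library (3.23), and the value was 3.31 without the untreated BT-16 and 5.01 without the untreated CHLA-266 library. ADAMTS17 (chromosome 15, 99971437 to 100342005), another gene of fibrillin-rich matrix, had 24 and 8 counts before and 145 and 107 after treatment (log2 fold change 3.24, SE 0.75, adjusted p = 0.0116 in edgeR, and 4.11 without the untreated BT-16 library). ADAMTS17 shares 431 bases of exon with a gene on the other strand. In both treated libraries it lay below the 95th percentile of the olfactory receptor genes. ADAMTS18 had 8 and 2 counts before and 84 and 7 after treatment and did not pass the test, except when the treated CHLA-266 library was left out (log2 fold change 4.26). ADAMTS19 had 308 and 227 counts before and 371 and 237 after treatment and did not pass the test (adjusted p = 0.382 in edgeR). ADAMTS13, the von Willebrand factor-cleaving protease, had 841 and 531 counts before and 513 and 455 after treatment (log2 fold change -0.24, SE 0.29, adjusted p = 0.528 in edgeR), and its sign turned with upper-quartile normalization.

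ADAMTS16 (chromosome 5, 5140330 to 5320304) moved in opposite directions in the cell lines. BT-16 had 305 counts before and 107 after treatment, but CHLA-266 had 4 before and 94 after. The log2 ratio, treated over untreated, was -1.25 in BT-16 (counting interval -1.59 to -0.93) and 4.64 in CHLA-266 (3.40 to 6.70). With 1 library per cell line and condition this difference could not be tested. The treated cell lines had like counts, whereas the untreated ones were far apart. The fitted log2 fold change over all 4 libraries was -0.30 without and 1.27 with the block, and neither passed the test (adjusted p = 0.859 and 0.342 in edgeR). Without the untreated BT-16 library ADAMTS16 passed as higher (4.77).

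**Figure D3:**
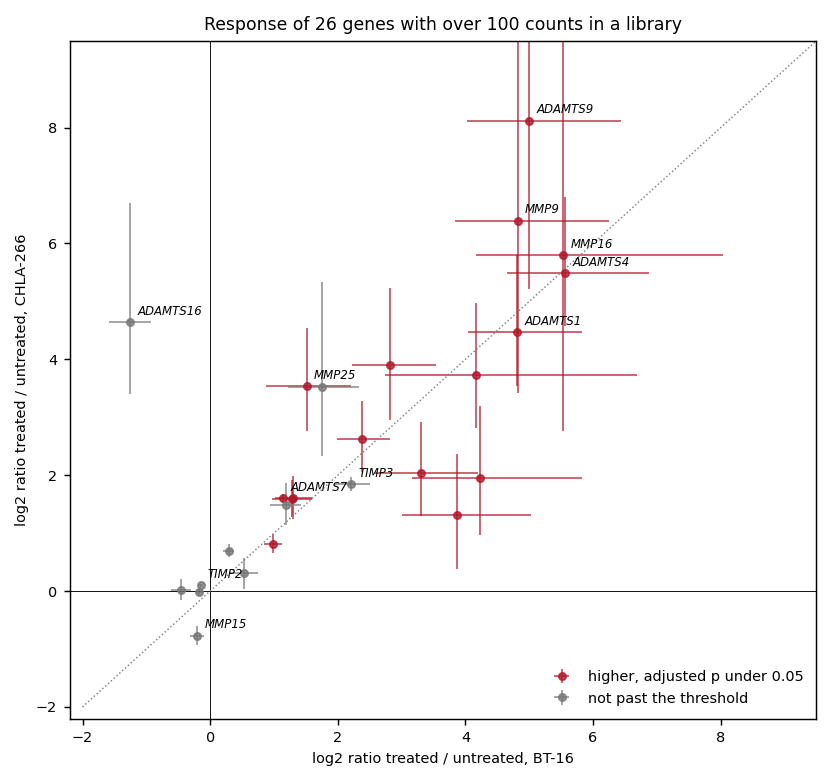
Log2 ratio of counts, treated over untreated, in BT-16 (horizontal) and CHLA-266 (vertical) for the 26 genes with over 100 counts in a library, with 95% intervals for counting error only, some of which run beyond the axis, and a dotted line of equal ratios. Genes that rose (red) lie above 0 in both cell lines, and ADAMTS16 alone combines a ratio of -1.25 in BT-16 with one of 4.64 in CHLA-266.

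Among the MMPs, 4 of the 6 membrane-type genes rose, beside 16.1% of all genes and 22.4% of those with a mean count under 100. The highest of the 6 per length did not rise. MMP14 (chromosome 14, 22836560 to 22849041) had 9616 and 6701 counts before and 7131 and 5621 after treatment, and its log2 fold change was -0.10 (SE 0.18, adjusted p = 0.670 in edgeR), with a sign that turned when library totals or upper-quartile normalization set the scale. MMP15 had 1618 and 962 counts before and 1176 and 477 after treatment and did not pass the test (adjusted p = 0.408 in edgeR, at a log2 fold change of -0.40). Without the treated BT-16 library MMP15 passed the test as lower (log2 fold change -1.09), and without the treated CHLA-266 library its value was 0.07. MMP17, which is held at the membrane by a lipid anchor, had 640 and 559 counts before and 1059 and 834 after treatment. It rose by a log2 fold change of 0.90 (SE 0.24, adjusted p = 0.0195 in edgeR), the smallest of the 20, and the call was lost without the treated BT-16 (0.81), untreated BT-16 (0.92), or untreated CHLA-266 library (0.89).

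MMP24, a membrane-type MMP known from neurons, had 125 and 119 counts before and 254 and 303 after treatment. Its log2 fold change was 1.45 (SE 0.42, adjusted p = 0.0274 in edgeR), and the call was lost without the treated CHLA-266 (1.24), untreated BT-16 (1.40), or untreated CHLA-266 library (1.49). MMP25, first known from leukocytes, had 29 and 13 counts before and 70 and 132 after treatment (log2 fold change 2.56, SE 0.77, adjusted p = 0.0329 in edgeR). Both cell lines moved up in these 2 genes, with the higher treated count in CHLA-266. The call of MMP25 was lost without the treated (1.95) or untreated CHLA-266 library (2.15). Exons of MMP24 and MMP25 overlap genes on the other strand over 968 and 1454 bases, and strand use in the counting is not stated, so reads of the partners cannot be told apart. MMP16, a brain-expressed membrane-type MMP, had 3 and 0 counts before and 135 and 23 after treatment. The ratio of its summed counts was 62.6 (counting interval 21.0 to 307, adjusted p = 0.0155 in edgeR). The call was lost without the treated BT-16 library (log2 fold change 4.20), and the value was 6.59, 9.31, and 4.93 without the treated CHLA-266, untreated BT-16, and untreated CHLA-266 library.

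Of the gelatinases, which cut denatured collagen and basement membrane collagen, MMP9 rose and MMP2 did not pass the test. MMP9 had 7 and 0 counts before and 177 and 35 after treatment (log2 fold change 5.11, SE 1.35, adjusted p = 0.0196 in edgeR). Most of the reads were in treated BT-16 cells, and without that library the log2 fold change was 3.67 and the call was lost. The value was 5.85, 9.74, and 4.18 without the treated CHLA-266, untreated BT-16, and untreated CHLA-266 library. MMP9 shares 430 bases of exon with an antisense gene. MMP2 had 38 and 5 counts before and 108 and 53 after treatment (adjusted p = 0.114 in edgeR, at a log2 fold change of 2.18), and its conditions did not overlap. MMP2 passed the test in DESeq2 with the block, and its log2 fold change was 4.12 without the untreated BT-16 library. MMP9 is also made by neutrophils, and 2 of 7 neutrophil markers rose (MPO and S100A9). The summed level of the 7 was 0.667 and 0.536 CPM before and 9.81 and 4.41 CPM after treatment, with S100A9 at 0 in both untreated libraries, and their part in the result was not tested. Of other cell types, 3 of 5 endothelial markers rose (VWF, CDH5, and KDR). Of 8 macrophage markers 2 rose, which were ITGAM, from 4 and 4 to 111 and 196 counts, and AIF1, from 0 and 0 to 27 and 55, while CD68 was at 3 and 1 before and 0 and 0 after treatment. Of 6 fibroblast markers 0 rose and 1 fell, which was COL1A2, from 408 and 412 to 103 and 49 counts. Over all genes, 16.1% rose and 19.1% fell. Summed CPM were 0.957 and 0.812 before and 10.7 and 7.93 after treatment for endothelial markers. They were 6.49 and 3.72 before and 10.5 and 8.91 after for macrophage markers, and 14.3 and 10.6 before and 19.0 and 8.37 after for fibroblast markers. The libraries were of cultured cell lines. The summed level of the olfactory receptor genes also rose, from 7.10 and 8.37 before to 94.0 and 68.8 CPM after treatment. The part of these cell types, or of that rise, in the results was not tested.

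Among the MMPs that share no such class, MMP28, or epilysin, had 0 and 2 counts before and 67 and 38 after treatment. Its ratio of summed counts was 62.4 (counting interval 16.9 to 522, adjusted p = 0.0171 in edgeR). Both cell lines moved up from the floor of 3 counts. The call of MMP28 was lost without the treated BT-16 library (log2 fold change 5.36), and the value was 4.77 without the untreated BT-16 and 8.82 without the untreated CHLA-266 library. MMP11, or stromelysin-3, was the second MMP per length in all 4 libraries, and it had 1973 and 1200 counts before and 2020 and 1641 after treatment. Its adjusted p was 0.134 in edgeR and 0.0336 with the block, in which it rose by a log2 fold change of 0.49. It also passed under upper-quartile normalization and when library totals set the scale. MMP19 had 6 and 18 counts before and 24 and 32 after treatment, and MMP21 had 68 and 54 before and 75 and 83 after. MMP26 had 1 and 4 counts before and 18 and 12 after treatment. MMP23B had 8 and 0 counts before and 5 and 7 after treatment and has a near-identical copy, MMP23A. None of these 4 passed the test.

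The 9 MMP genes of the chromosome 11 cluster (MMP7, MMP20, MMP27, MMP8, MMP10, MMP1, MMP3, MMP12, and MMP13) lie within 435 kb (102520508 to 102955732, hg38). They hold the collagenases, stromelysins, and a matrilysin that many tumors and inflamed tissues make. All 9 together had 5 and 1 counts before and 111 and 109 after treatment in BT-16 and CHLA-266, and no single gene exceeded 35 counts in any library. The 2 cell lines had like sums, with different genes in front, also per length. In treated BT-16 cells MMP13 had 35 and MMP1 28 counts, against 10 and 2 in CHLA-266. In treated CHLA-266 cells MMP10 and MMP12 had 30 counts each, against 14 and 4 in BT-16. Of the 9 genes, 1 rose, and 0 with the block, beside 16.1% and 17.9% of all genes. The gene that rose was MMP13, or collagenase-3, with 0 and 0 counts before and 35 and 10 after treatment. It was at least 8.65-fold higher (floor of 3 counts in each untreated library, adjusted p = 0.0473 in edgeR and 0.0924 with the block). The call of MMP13 was lost without any one of the 4 libraries, with adjusted p values from 0.0511 to 0.256 in edgeR. MMP12 did not pass in the main fit (adjusted p = 0.0769 in edgeR, log2 fold change 7.29) but passed in DESeq2 without the block. Its log2 fold change was 8.14 without the treated BT-16 library. MMP3 passed with the filter of edgeR and not in the main fit (adjusted p = 0.115 in edgeR). Outside the cluster, 6 of 14 MMP genes rose, beside 16.1% of all genes and 22.4% of those with a mean count under 100. MMP3, MMP8, and MMP20 had between 6 and 13 counts in the treated libraries, MMP7 had 2 and 4, and MMP27 had 2 and 0.

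**Figure D4:**
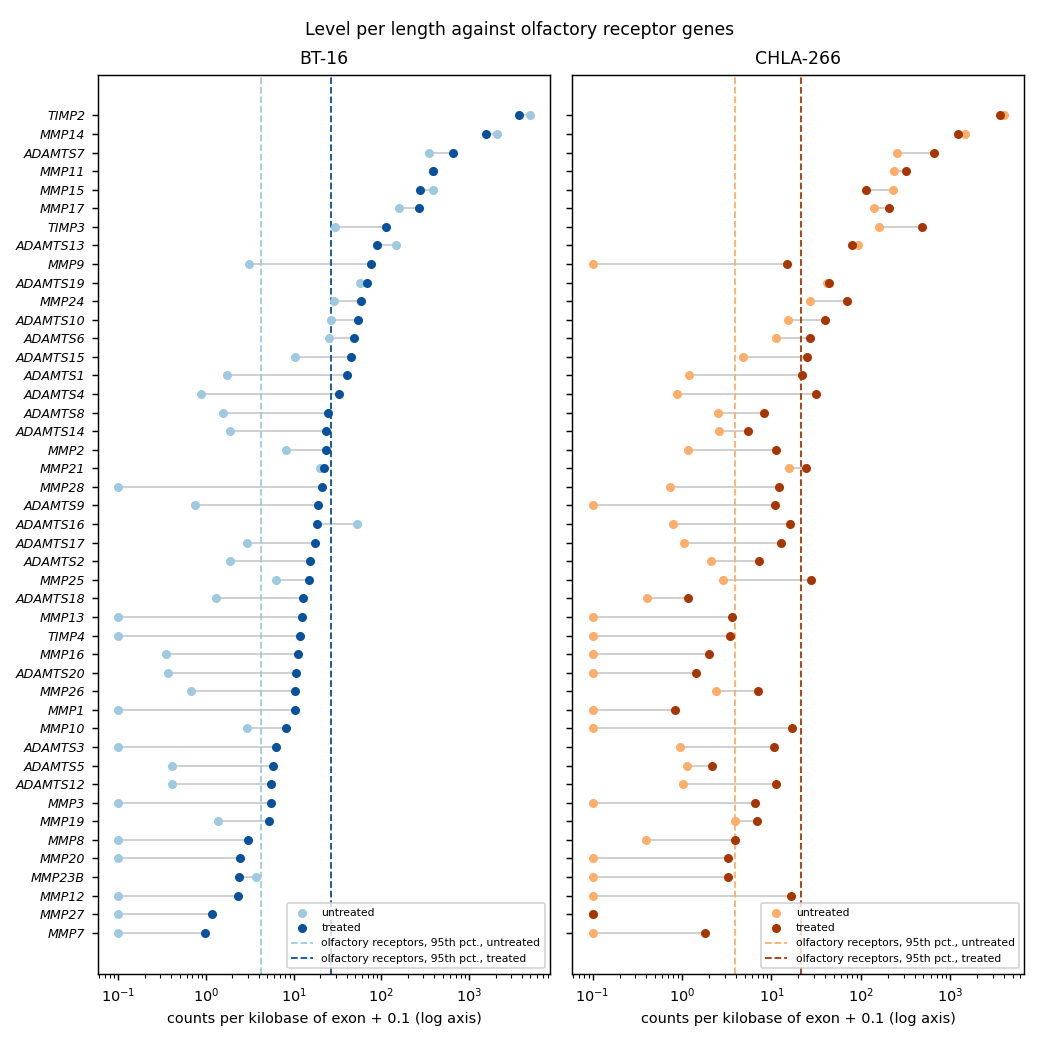
Counts per kilobase of exon (plus 0.1, log axis) of the 45 genes before (light) and after (dark) treatment in BT-16 (left) and CHLA-266 (right), with dashed lines at the 95th percentile of 380 olfactory receptor genes in the same libraries. That percentile moved from 4.11 to 26.3 in BT-16 and from 3.81 to 21.2 in CHLA-266, and 15 of the 45 genes lie above it in both treated libraries.

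None of the 3 TIMPs passed the test without the block. TIMP2 (chromosome 17, 78852977 to 78925387) had 30378 and 24591 counts before and 22958 and 22260 after treatment. Its log2 fold change was -0.02 (SE 0.16, adjusted p = 0.912 in edgeR), and it turned positive under 8 other scalings, filters, or tools, up to 0.32 with upper-quartile normalization. TIMP3 (chromosome 22, 32801705 to 32863041), which binds to the matrix, had 134 counts in BT-16 and 728 in CHLA-266 before treatment, and 522 and 2205 after it. The treated BT-16 value lay below the untreated CHLA-266 value, so the conditions overlapped, whereas TIMP3 went up within each cell line. It reached a log2 ratio of 2.21 in BT-16 (counting interval 1.94 to 2.50) and 1.84 in CHLA-266 (1.72 to 1.97). Without the block the adjusted p of TIMP3 was 0.104, and with the block it was 2.74e-08 (edgeR), at a log2 fold change of 2.02. In the fit without the block TIMP3 passed when the treated BT-16 (2.62) or the untreated CHLA-266 library (3.73) was left out. TIMP4 had 0 and 0 counts before and 14 and 4 after treatment and did not pass the test.

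Genes that act with these proteases were described from 6 lists of activators, inhibitors, relatives, and substrates. Of 46 tested genes, 13 rose and 5 fell, and 15 rose and 6 fell with the block. Over all genes these shares were 16.1% and 19.1%, and 17.9% and 23.7% with the block, and nothing is read from the small counts of single lists. Of the 18 that passed, 10 passed under every alternative in which they were tested. Without the untreated BT-16 library 3 fell, and under library totals and upper-quartile scaling 3 and 2 fell. Among 10 activators and cofactors, 3 rose and 2 fell. FURIN, the convertase that removes the propeptide of membrane-type MMPs and ADAMTS proteases, fell from 10510 and 7333 to 3596 and 1662 counts (log2 fold change -1.53, SE 0.29, adjusted p = 0.00523 in edgeR). PCSK6, another convertase, fell from 4992 and 5150 to 1572 and 2705 counts (log2 fold change -0.98, adjusted p = 0.0255 in edgeR). The call of PCSK6 was lost without the untreated CHLA-266 library, with upper-quartile normalization, and with at least 10 counts in every library. PCSK5, a further convertase, rose from 43 and 13 to 279 and 169 counts (log2 fold change 3.26, or 4.24 without the untreated BT-16 library, adjusted p = 0.00673 in edgeR). The 3 convertases did not overlap between conditions, with FURIN and PCSK6 lower and PCSK5 higher in both cell lines. LRP1, the endocytic receptor that clears MMPs, ADAMTS proteases, and TIMPs, rose from 15073 and 10400 to 31238 and 34206 counts (log2 fold change 1.63, SE 0.20, adjusted p = 0.000572 in edgeR). PLAUR, the urokinase receptor, rose from 71 and 32 to 185 and 153 counts (adjusted p = 0.0283 in edgeR), a call that was lost without the untreated CHLA-266 library (log2 fold change 1.58).

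Among 8 other inhibitors, A2M, the broad protease trap alpha-2-macroglobulin, rose from 78 and 107 to 415 and 599 counts (log2 fold change 2.70, SE 0.42, adjusted p = 0.00202 in edgeR). FBLN1, an ADAMTS1 cofactor that also binds versican, fell from 6874 and 4483 to 3539 and 1793 counts (log2 fold change -0.85, adjusted p = 0.0403 in edgeR). FBLN1 passed in 5 of 13 alternatives, and its log2 fold change ranged from -1.32 without the treated BT-16 library to -0.48 without the treated CHLA-266 library, where the call was lost. RECK, a membrane-bound MMP inhibitor, had 1633 and 1137 counts before and 758 and 992 after treatment and did not pass the test. Of 7 proteoglycan substrates, 3 rose and 0 fell. VCAN, or versican, rose from 39 and 78 to 314 and 293 counts (log2 fold change 2.59, or 3.29 without the untreated CHLA-266 library, adjusted p = 0.00645 in edgeR). ACAN, or aggrecan, rose from 20 and 3 to 163 and 61 (log2 fold change 3.53, adjusted p = 0.0234 in edgeR). Its call was lost without the treated BT-16 or the untreated CHLA-266 library (2.78 each), and the value was 5.30 without the untreated BT-16 library. NCAN, or neurocan, rose from 16 and 7 to 88 and 85 (3.17, adjusted p = 0.0181 in edgeR). Its call was lost without either CHLA-266 library, at the lowest 2.76 without the untreated one, and the value was 3.77 without the untreated BT-16 library. BCAN, the brain proteoglycan brevican, had 812 and 757 counts before and 546 and 604 after treatment and did not pass the test, and neither did HSPG2, or perlecan, at 35922 to 52335 counts.

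Of 11 ADAM proteases, the membrane-anchored relatives, 3 rose and 2 fell. ADAM23 rose from 146 and 56 to 677 and 624 counts (log2 fold change 2.97, or 3.70 without the untreated BT-16 library, adjusted p = 0.00165 in edgeR). ADAM22, like ADAM23 a receptor of LGI proteins without protease activity, fell from 3443 and 2952 to 1214 and 1292 counts (log2 fold change -1.09, adjusted p = 0.00259 in edgeR). The sheddases ADAM10 and ADAM17, which had 8020 to 10958 counts in all libraries, did not pass the test. ADAM12 and ADAM33 rose and ADAM15 fell. ADAM12 had an adjusted p of 0.0529 in edgeR with the block, and its call was also lost without the treated BT-16 (log2 fold change 2.40) or either untreated library. The log2 fold change of ADAM33 was 3.70, and 3.07 and 4.79 without the untreated BT-16 and the untreated CHLA-266 library. That of ADAM15 was -0.90, and its call was lost in 5 of 13 alternatives, among them leaving out the untreated BT-16 library (-0.40). Of 5 ADAMTS-like proteins, which lack the protease domain, ADAMTSL1 and ADAMTSL2 rose, and the call of ADAMTSL1 was lost without the treated BT-16 library (log2 fold change 2.12, against 3.18 with all libraries and 3.79 without the treated CHLA-266 library). The fitted log2 fold change of ADAMTSL2 was 7.29, and 9.43 and 6.51 without the untreated BT-16 and the untreated CHLA-266 library. ADAMTSL2, a fibrillin-binding protein, went from 1 and 0 to 70 and 94 counts. Of 5 astacin and meprin proteases, TLL2 rose, from 75 and 68 to 243 and 246 counts, while BMP1, the procollagen C-proteinase, had 2649 and 1889 before and 2204 and 2065 after treatment.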

How the data were processed

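RNA of BT-16 and CHLA-266 cells was sequenced with a stranded kit for small amounts of RNA, with 1 library per cell line and condition. The authors used STAR with hg38 for alignment, and the estimated counts per gene that they deposited are not normalized. How strands and read pairs were treated in counting was not given in the sources used here, and intervals, which cover counting error alone, are too narrow if mates were counted separately. The log2 values that the authors deposited come from the variance-stabilizing transformation (VST) in DESeq2 for 17553 genes and served in 1 alternative.

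In the 18449 genes, 5 values in 2 genes were rounded, and 383 genes with a total of 0 were left out. The conditions were compared in R 4.3.3 by the quasi-likelihood test of edgeR 4.0.16 after TMM scaling, without a term for the cell line and with Benjamini-Hochberg adjustment over 18066 genes. The libraries pair by cell line, and deviations from the mean of each condition correlated at 0.263 over 12620 genes, which are not independent. Ratios within a cell line used TMM scaling, 0.5 added counts, and exact Clopper-Pearson 95% intervals. Alternatives were a block for the cell line, DESeq2 1.42.0 (also with that block), 3 other scalings, 2 filters, limma 3.58.1 on VST values, and each library left out. Exon lengths and gene coordinates come from GENCODE 44 (hg38). All genes of the 3 families that passed the test or exceeded 100 counts are named. The genes, the lists, and the role classes were chosen with earlier results of these data known.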

Additional observations from a re-analysis of the deposited data

Results flagged for a closer look

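In 4 genes the log2 ratio, treated over untreated, had opposite signs in the 2 cell lines, which could not be tested with 1 library per cell line and condition. ADAMTS16 was at -1.25 in BT-16 but at 4.64 in CHLA-266. Its counting intervals lay on opposite sides of 0. TIMP2 was at -0.15 and 0.10, also with intervals on opposite sides of 0, but its BT-16 ratio turned positive with library totals. ADAMTS13 was at -0.46 and 0.022, with an interval in CHLA-266 that included 0. MMP23B was at -0.37 and 4.15 from at most 8 counts per library.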

How the results depend on the processing

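With only 2 libraries per condition, genes that missed the threshold are not shown to be unchanged. Of the 20 genes that rose, 6 (ADAMTS1, ADAMTS4, ADAMTS7, ADAMTS9, ADAMTS15, and ADAMTS17) passed the test under every alternative in which they were tested. With at least 10 counts in every library, 17 of the 45 genes were tested and 9 rose, and 8 of the listed partner genes rose and 2 fell. Of all 12620 genes tested in that fit, 2253 rose and 2553 fell. When each library was left out, 12 to 17 genes of the families rose and 0 to 1 fell, the one being MMP15. The partner genes that fell numbered 3 with library totals, 3 with limma on VST values, 2 with upper-quartile normalization, and 3 to 5 with a library left out. The replicate block (cell line) gave 20 genes that rose. It removed ADAMTS8, ADAMTS14, and MMP13 and added ADAMTS6, MMP11, and TIMP3, and it changed no other call of the 45. The median log2 fold change of all genes was 0.24 with TMM, 0.31 under DESeq2 size factors, 0.46 under library totals, and 0.59 under upper-quartile scaling.

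Signs turned only in genes that did not pass the test. ADAMTS16 had a log2 fold change of 1.27 with the replicate block, 1.63 in DESeq2 with the block, 0.22 in limma on VST values, 0.072 with upper-quartile normalization, and -1.27 to 4.77 with a library left out. TIMP2 was at 0.043 with DESeq2 size factors, in DESeq2, and in limma, at 0.044 in DESeq2 with the block, at 0.16 with at least 10 counts, 0.0097 with the filter of edgeR, 0.20 with library totals, 0.32 with upper-quartile normalization, and -0.094 to 0.047 with a library left out. MMP14 was at 0.085 with at least 10 counts, 0.13 with library totals, 0.25 with upper-quartile normalization, and -0.27 to 0.089 with a library left out. ADAMTS13 was at 0.11 with upper-quartile normalization. With a library left out, ADAMTS13 ranged from -0.47 to 0.031, MMP15 from -1.09 to 0.072, and MMP23B from -0.069 to 5.69. With library totals, the BT-16 ratios of MMP14, MMP15, and TIMP2 were 0.11, 0.084, and 0.14. The cause of these changes was not tested.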
